A study of Homo sapiens with 16 samples.

Results

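FOXA2, SPDEF and SOX4 are transcription factors of epithelial lineages that were nearly lost from TXNIP-deleted MDA-MB-231 cells. They are described here beside 4 relatives, FOXA1, GATA3, SOX9 and ELF3, as 7 of the 60719 genes counted. The 3 lost genes were chosen from their measured levels in 231:TKO and parental 231 cells, so their difference between these cells is given as a description, without a test. The relatives were chosen for comparison, from the same families or as lineage factors of the breast.

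The cells are MDA-MB-231, an established breast cancer line of the triple-negative class, which lacks estrogen and progesterone receptors. 231:TKO cells carry a deletion of TXNIP made by CRISPR/Cas9 in this line, and knockout clones were isolated from single cells, so a difference from the unedited parental 231 cells may also hold what a clone brings with it. RNA was sequenced from untreated parental 231 and 231:TKO cells, with 2 replicates each, and from both populations 48 hours after siRNA, either against Myc (siMyc) or without a target (siNT), with 3 replicates each, which gives 6 groups and 16 libraries. The comparisons ask what TXNIP loss changes and which changes depend on Myc.

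FOXA2 is a forkhead factor that opens closed chromatin in endodermal lineages such as liver, pancreas and gut, and its relative FOXA1 does so in luminal breast cells together with GATA3 and the estrogen receptor. SPDEF is an ETS factor of goblet cells and other mucus-secreting epithelia and of luminal breast and prostate cells, where it promotes the secretory programme, and ELF3 is an ETS factor of differentiated epithelia. SOX4 is a SOX factor with roles in embryonic and progenitor cells and in TGF-beta responses, and SOX9 is a SOX factor of cartilage, of intestinal and hair follicle progenitors and of breast progenitors.

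Promoters are shown first, since they are the sequences on which loss or knockdown of a transcription factor can act. RefSeq (GRCh38.p14) gave promoters, from 250 bases before to 50 bases after the annotated start, for 5 of the 7 genes, all but FOXA2 and SOX9. Those of SPDEF and SOX4, which were nearly lost, and of ELF3, the ETS relative of SPDEF that was kept in part, are printed 5′ to 3′ on the strand of the gene. Capitals mark every match, on either strand, to the letters searched for, and no match overlaps another. These were the E-box bound by Myc, written CACGTG, and for forkhead factors TGTTTAC and also TATTTAC. For SOX factors the letters were AACAAT, for ETS factors CCGGAAGT, and for GATA factors AGATAA. The CCAAT box was searched as its own letters.
SPDEF promoter, minus strand, chr6:34556280-34556579: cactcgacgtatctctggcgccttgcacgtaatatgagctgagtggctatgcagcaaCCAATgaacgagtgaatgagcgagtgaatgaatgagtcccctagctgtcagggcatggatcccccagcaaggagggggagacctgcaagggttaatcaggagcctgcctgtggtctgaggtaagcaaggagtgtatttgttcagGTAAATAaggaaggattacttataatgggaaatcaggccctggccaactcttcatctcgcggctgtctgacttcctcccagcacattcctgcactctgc
SOX4 promoter, plus strand, chr6:21593501-21593800: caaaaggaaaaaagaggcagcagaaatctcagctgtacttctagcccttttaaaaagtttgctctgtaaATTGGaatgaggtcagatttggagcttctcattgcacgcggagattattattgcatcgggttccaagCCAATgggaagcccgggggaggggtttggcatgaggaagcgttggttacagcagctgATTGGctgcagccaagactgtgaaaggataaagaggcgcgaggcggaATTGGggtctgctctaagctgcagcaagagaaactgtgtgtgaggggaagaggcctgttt
ELF3 promoter, plus strand, chr1:202010337-202010636: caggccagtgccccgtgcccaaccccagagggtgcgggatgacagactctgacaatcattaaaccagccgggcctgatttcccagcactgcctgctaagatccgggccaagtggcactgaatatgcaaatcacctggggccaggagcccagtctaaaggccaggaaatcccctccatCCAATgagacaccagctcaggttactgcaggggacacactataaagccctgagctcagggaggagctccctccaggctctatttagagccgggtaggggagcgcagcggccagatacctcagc

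The SPDEF promoter held 1 forkhead match, TATTTAC on the opposite strand at position -49 from the start, and 1 CCAAT box. TATTTAC was found in 2.77% of 27305 promoters of the same length and CCAAT in 35.7%. Both were added to the search after the promoters had been read, so these shares do not show how unusual the matches are. The SOX4 promoter held 4 CCAAT boxes and no other match, and the ELF3 promoter held 1 CCAAT box. The Myc E-box stood in none of these 3 windows, against 7.43% of all promoters. SPDEF and SOX4 had 8 CpG dinucleotides each and ELF3 had 7, below the median of 14 over all promoters, while FOXA1 had 34. Of the 6 starts of GATA3, 1 held the E-box.

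The libraries had between 18953668 and 59799444 counts in genes, and levels are given as counts scaled to a total of 1000000 in each library (CPM). TXNIP lay at 293 and 295 CPM in untreated parental 231 and at 12.4 and 46.0 in 231:TKO, and between 6.76 and 10.3 in the siRNA-treated 231:TKO libraries against 288 to 445 in the parental ones. MYC was at 122 to 148 CPM in the 6 libraries with siNT and at 59.2 to 64.9 in the 6 with siMyc. ESR1 stood at most at 0.317 CPM in any library and PGR at most at 0.0777, while VIM, a marker of mesenchymal cells, lay between 1862 and 2995 CPM. The 2 untreated 231:TKO libraries differed from each other more than the untreated parental ones did, with a chi-square per gene of 46.1 against 2.18. A pair of parental libraries, siNT replicate 1 and siMyc replicate 3, stood apart from the other 4 siRNA-treated parental libraries, and their deviations from their group means correlated at 0.912 across 11873 genes. The summed markers of immune, endothelial and fibroblast cells, of which 13 of 14 were measured, lay between 17.0 and 73.3 CPM. This sum was lower in 231:TKO in each set (44.9 to 56.2 CPM in parental 231+siNT and 25.6 to 26.6 in 231:TKO+siNT), with DCN at 0.0669 CPM or less throughout and PTPRC at 1.53 or less, and its part in the results was not tested.

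FOXA2 (ENSG00000125798, GRCh38 chromosome 20, 22580998 to 22585455, minus strand) was well expressed in every parental 231 library and nearly absent from every 231:TKO library. It lay at 38.1 and 34.8 CPM in the untreated parental libraries and at 0.234 and 0.659 CPM in those of 231:TKO. With siNT it lay at 58.1, 54.9 and 58.1 CPM in parental 231 and at 1.89, 1.63 and 1.69 CPM in 231:TKO. Every parental library stood above every 231:TKO library. The ratio of pooled counts was 82.4-fold (95% interval 56.0 to 127) without siRNA, 32.8-fold (28.2 to 38.3) with siNT and 47.0-fold (39.9 to 55.8) with siMyc. Without siRNA the fitted log2 fold change of -6.31 ± 0.37 moved to -5.76 without 231:TKO replicate 1 and to -7.21 without replicate 2. The intervals are exact and cover counting error only, since the reads carry no molecular identifiers. In bulk RNA, fewer cells with a transcript and less of it per cell cannot be told apart.

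SPDEF (ENSG00000124664, chromosome 6, 34537802 to 34556333, minus strand) was near 0 in every 231:TKO library, but its level in parental 231 depended on the set of libraries. The untreated parental libraries held 4.38 and 4.93 CPM, and those with siNT held 106, 91.5 and 101.99 CPM. The 231:TKO libraries held 0.200 and 0.451 CPM untreated and 0.320, 0.502 and 0.204 CPM with siNT. The groups did not overlap in either set. The fitted log2 fold change of 231:TKO over parental 231 was -3.78 ± 0.40 (SE) without siRNA and -8.25 ± 0.20 with siNT, the lowest of the 7 genes in the siNT libraries. In pooled counts this was 14.4-fold (8.96 to 24.5) and 295-fold (211 to 426) lower. The untreated log2 fold change moved to -3.33 without 231:TKO replicate 1 and to -4.46 without replicate 2.

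SOX4 (ENSG00000124766, chromosome 6, 21593751 to 21598619, plus strand, a gene with a single exon) lay at 13.0 and 11.9 CPM in untreated parental 231 and at 0.0668 and 0.104 CPM in 231:TKO, which is 2 and 3 counts. With siNT it lay at 49.95, 48.2 and 49.2 CPM in parental 231 and at 1.80, 1.54 and 1.22 CPM in 231:TKO. The 2 untreated 231:TKO libraries are at or below 3 counts, the smallest signal taken here, so the untreated ratio, 147-fold lower, has a wide counting interval of 62.4 to 454. With siNT the ratio was 32.3-fold (27.5 to 38.1) and with siMyc 23.7-fold (21.2 to 26.7). SPDEF and SOX4 lie on the same arm of chromosome 6 and FOXA2 on chromosome 20.

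**Figure D1:**
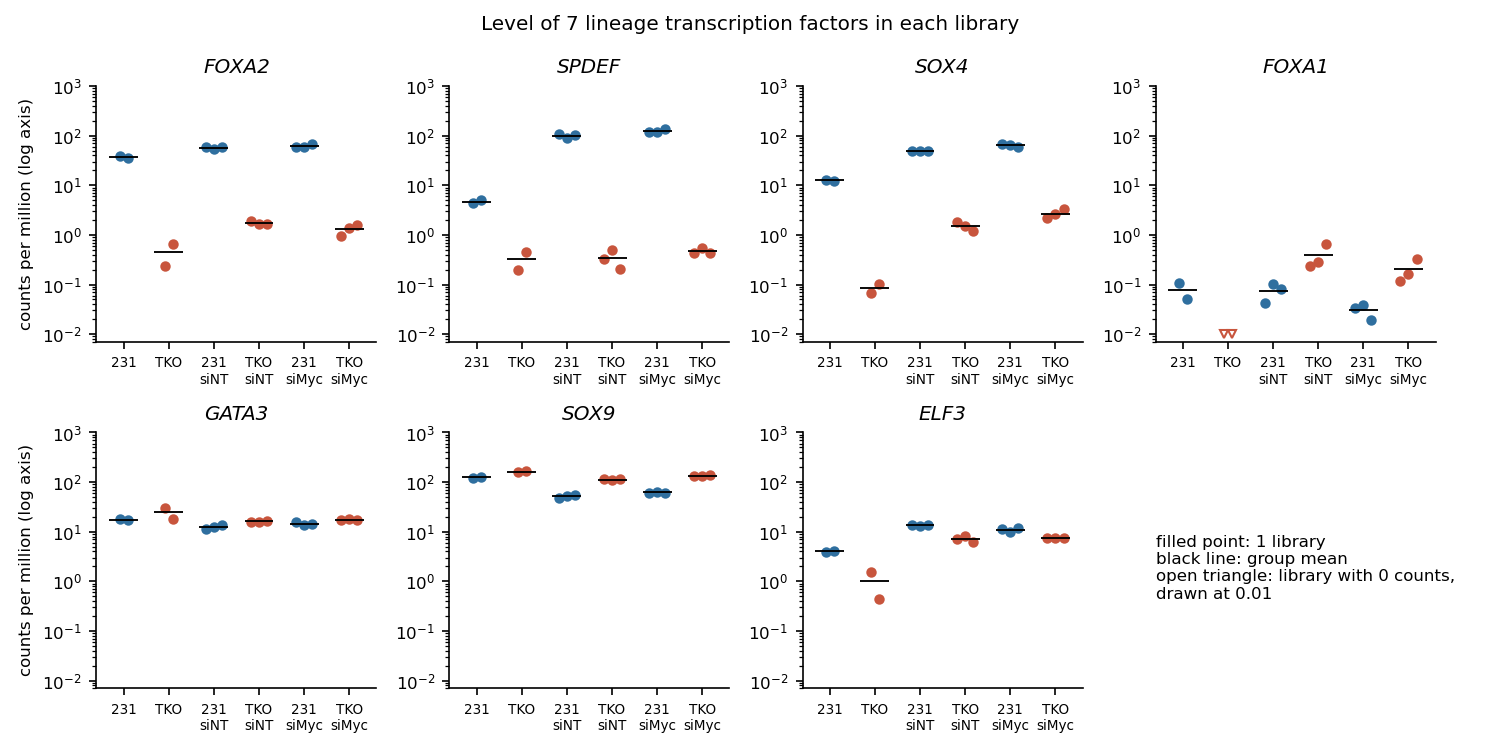
Level of the 7 transcription factors in each of the 16 libraries, in CPM on a log axis, by group. Blue points are parental 231 and red points 231:TKO libraries, black lines are group means, and open triangles are libraries with 0 counts drawn at 0.01. FOXA2, SPDEF and SOX4 stood lower in every 231:TKO library than in any parental library of the same treatment, SOX9 stood higher, and SPDEF in parental 231 was near 5 CPM untreated and near 100 CPM with siNT.

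The lost genes shared 1 order of the parental groups and differed in that of the 231:TKO groups. For FOXA2 the means ran from parental 231+siMyc (62.0 ± 4.66 CPM, SD, n = 3) and parental 231+siNT (57.0 ± 1.84) through untreated parental 231 (36.5 ± 2.34, n = 2) to 231:TKO+siNT (1.74 ± 0.136), 231:TKO+siMyc (1.30 ± 0.324) and untreated 231:TKO (0.446 ± 0.301). SPDEF and SOX4 also ran from siMyc through siNT to untreated in parental 231. SPDEF in the 3 groups of 231:TKO (0.326 ± 0.177, 0.342 ± 0.150 and 0.472 ± 0.0709 CPM) did not differ beyond the spread of the libraries, whereas SOX4 rose in steps without overlap, from 0.0854 ± 0.0263 untreated to 1.52 ± 0.291 with siNT and 2.70 ± 0.553 with siMyc.

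Between untreated and siNT-treated parental cells, SPDEF was 21.4-fold higher in pooled counts (18.5 to 24.95), SOX4 3.93-fold (3.59 to 4.33), ELF3 3.30-fold (2.80 to 3.91) and FOXA2 1.56-fold (1.48 to 1.66), and SOX9 was at 0.413 of its untreated level (0.398 to 0.428). In 231:TKO the same step was 1.05-fold for SPDEF (0.580 to 1.94), 17.9-fold for SOX4 (7.50 to 55.8), 3.93-fold for FOXA2 (2.60 to 6.19) and 6.98-fold for ELF3 (5.36 to 9.25). The siRNA-treated libraries were also counted as read pairs and the untreated ones as single reads, so treatment and library type cannot be told apart here, and no test was made of this step.

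Per kilobase of transcript, SPDEF was the highest of the 7 genes in parental 231+siNT, at 52.1 ± 3.84 CPM per kb, ahead of FOXA2 at 21.0 ± 0.677, SOX9 at 13.1 ± 1.10, SOX4 at 10.1 ± 0.179 and GATA3 at 3.66 ± 0.374. In untreated parental 231 SOX9 was the highest, at 31.8 ± 0.893 CPM per kb, followed by FOXA2 at 13.4 ± 0.859 and GATA3 at 5.09 ± 0.177, and SOX4 and SPDEF lay together at 2.56 ± 0.158 and 2.43 ± 0.205. In every group of 231:TKO SOX9 was the highest, at 28.6 to 41.2 CPM per kb, and each of the lost genes lay below 1.

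The relatives moved in different directions. The nearest to the lost genes was ELF3, at 3.96 and 4.15 CPM in untreated parental 231 and at 1.57 and 0.451 CPM in 231:TKO, a ratio of 3.97 that did not pass the test below, against 14.4 for SPDEF. All genes whose counts in a comparison added up to more than 5 were fitted with edgeR's quasi-likelihood test, and those with a Benjamini-Hochberg adjusted p of at most 0.05 over all genes were called. In the untreated libraries 9.61% of 19965 genes were called, 5.43% higher and 4.18% lower in 231:TKO, and without either parental library 0 were. Of the 3 relatives fitted there 1 was called. With siNT, 36.8% of 23310 genes were called, 16.1% higher and 20.7% lower, and 4 of 4 relatives were called. With siMyc, 40.6% of 23561 genes were called, 18.8% higher and 21.7% lower, and 3 of 4 relatives were called. In both siRNA comparisons the parental libraries were deeper and were counted with another annotation release. The part of these differences cannot be told apart from that of TXNIP loss.

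SOX9 (ENSG00000125398, chromosome 17, 72121020 to 72126416) rose in all 3 comparisons. Its libraries held 123 and 128 CPM in untreated parental 231 and 157 and 167 CPM in 231:TKO, a log2 fold change of 0.41 ± 0.064 (edgeR adjusted p = 0.0241). With siNT they held 46.9, 52.5 and 55.5 CPM in parental 231 and 115, 108 and 114 CPM in 231:TKO, and the log2 fold change was 1.06 ± 0.094 (edgeR adjusted p = 7.7e-06). With siMyc the values were 61.0, 63.8 and 61.3 CPM against 132, 131 and 141 CPM, with a log2 fold change of 1.03 ± 0.089 (edgeR adjusted p = 1.1e-06). The groups did not overlap in any of them. The untreated call was lost without parental 231 replicate 1 (log2 fold change 0.38, adjusted p = 0.420) or replicate 2 (0.43, adjusted p = 0.384), where a lone parental library was assumed to vary like the 231:TKO pair.

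ELF3 (ENSG00000163435, chromosome 1, 202007945 to 202017183), which a gene model on the same strand overlaps, fell in the siRNA-treated libraries. With siNT it lay at 13.8, 12.9 and 13.5 CPM in parental 231 and at 7.01, 8.29 and 6.17 CPM in 231:TKO, a log2 fold change of -0.97 ± 0.12 (edgeR adjusted p = 0.000121). With siMyc the values were 11.1, 9.83 and 12.04 CPM against 7.48, 7.51 and 7.41 CPM, and the log2 fold change was -0.64 ± 0.11 (edgeR adjusted p = 0.000457). Without siRNA its log2 fold change of -1.95 ± 0.58 did not pass the test (edgeR adjusted p = 0.116), and the 2 untreated 231:TKO libraries lay far apart. It was -3.13 without 231:TKO replicate 1 and -1.33 without replicate 2. With 1 library left there, the spread came from the parental pair alone and the genes called rose from 1919 to 7002 and 6797, so those fits are given without a p.

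GATA3 (ENSG00000107485, chromosome 10, 8045378 to 8075198), which also shares its strand with an overlapping gene model, stayed expressed in every group. It held 17.7 and 16.9 CPM in untreated parental 231 and 30.7 and 18.3 CPM in 231:TKO, with a log2 fold change of 0.55 ± 0.27 that did not pass the test (edgeR adjusted p = 0.296). This value rested on 231:TKO replicate 1: it was 0.11 without that library and 0.87 without replicate 2, where the spread again came from the parental pair alone and GATA3 was called (edgeR adjusted p = 0.00118). With siNT it held 11.1, 12.5 and 13.7 CPM in parental 231 and 16.1, 15.7 and 16.8 CPM in 231:TKO, a rise of 0.32 ± 0.11 on the log2 scale (edgeR adjusted p = 0.0405). That call was lost when any of the 3 231:TKO+siNT libraries or parental 231+siNT replicate 2 was left out (adjusted p between 0.0767 and 0.147). With siMyc the values were 15.4, 13.7 and 14.7 CPM against 17.4, 17.8 and 17.3 CPM (0.18 ± 0.097, edgeR adjusted p = 0.164).

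FOXA1 (ENSG00000129514, chromosome 14, 37589552 to 37596059) was at the edge of detection in every group, with between 0 and 22 counts in a library, while FOXA2 had 671 to 3522 counts in the parental libraries. It had 2 and 1 counts in untreated parental 231 and 0 and 0 in 231:TKO, too few for the fit. With siNT it had 2, 5 and 4 counts in parental 231 and 8, 9 and 22 in 231:TKO, which is 5.17-fold higher in pooled CPM (2.60 to 11.2), and the log2 fold change was 2.26 ± 0.57 (edgeR adjusted p = 0.00873). With siMyc it had 2, 2 and 1 counts against 4, 6 and 13 (log2 fold change 2.57 ± 0.68, edgeR adjusted p = 0.00883). Each call rested on replicate 3 of 231:TKO: without it the values were 1.68 (adjusted p = 0.0682) with siNT and 2.03 (adjusted p = 0.0660) with siMyc.

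**Figure D2:**
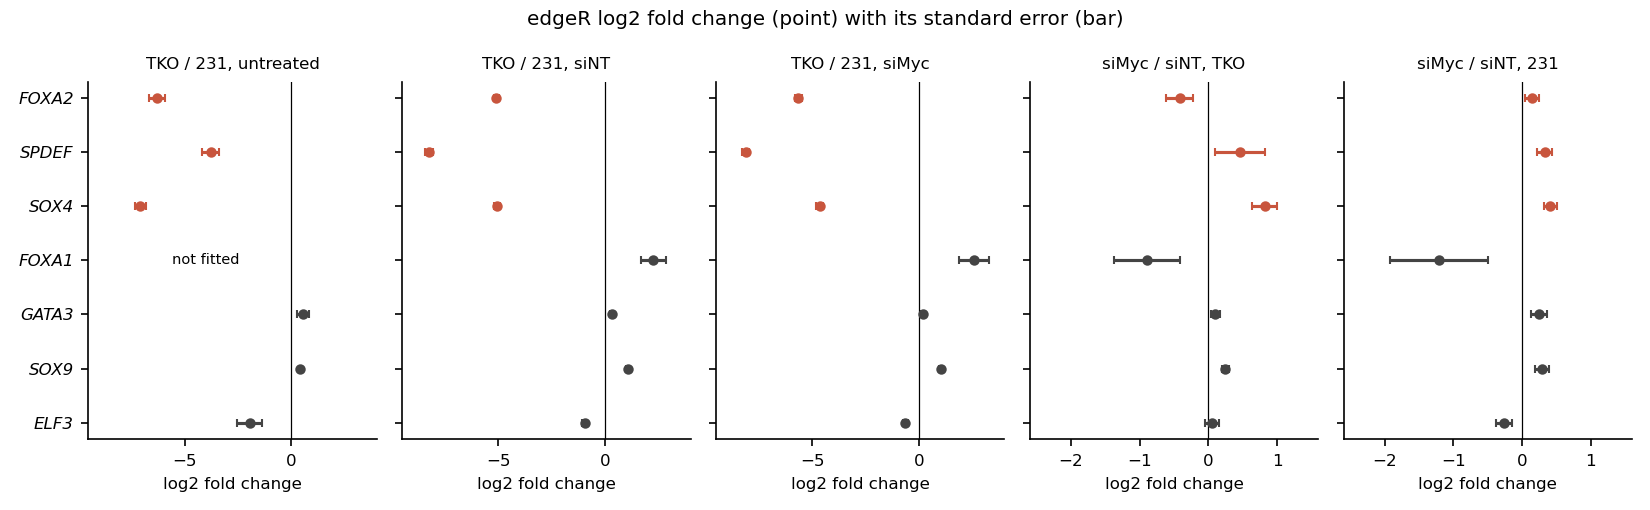
Log2 fold change of the 7 genes in 5 comparisons, as fitted by edgeR, with bars of 1 standard error. Red points are the lost genes and grey points the relatives; the 3 panels on the left compare 231:TKO with parental 231 and the 2 on the right, on a narrower axis, compare siMyc with siNT. FOXA2, SPDEF and SOX4 lie between -3.78 and -8.25 on the left, and no gene moves by more than 1.21 in either direction on the right.

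The 231:TKO+siMyc and 231:TKO+siNT libraries were compared to see how far the lost genes came back when Myc was lowered. The genes were chosen as nearly lost in 231:TKO from levels that include both groups. A gene that returned fully would therefore not have been chosen, and only a return in part could be seen. SOX4 rose in part. It lay at 1.80, 1.54 and 1.22 CPM with siNT and at 2.19, 2.61 and 3.29 CPM with siMyc, without overlap, and its log2 fold change was 0.82 ± 0.18 (edgeR adjusted p = 0.00156). It still stood 23.7-fold below parental 231+siMyc. FOXA2 did not rise: it lay at 1.89, 1.63 and 1.69 CPM with siNT and lower, at 0.953, 1.36 and 1.59 CPM, with siMyc, a difference that did not pass the test (log2 fold change -0.42 ± 0.20, edgeR adjusted p = 0.131). Without 231:TKO+siMyc replicate 3 its value was -0.60 (adjusted p = 0.0365). SPDEF, at 0.320, 0.502 and 0.204 CPM against 0.433, 0.554 and 0.430 CPM, overlapped between the groups (0.46 ± 0.36, edgeR adjusted p = 0.400).

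Among the relatives SOX9 rose with siMyc in 231:TKO, from 115, 108 and 114 CPM to 132, 131 and 141 CPM, by 0.25 ± 0.051 on the log2 scale (edgeR adjusted p = 0.000791). FOXA1 (-0.90 ± 0.48, edgeR adjusted p = 0.191), GATA3 (0.10 ± 0.071, edgeR adjusted p = 0.333) and ELF3 (0.05 ± 0.11, edgeR adjusted p = 0.780) did not pass. So 2 of 7 genes, both of the SOX family, were called, while 27.2% of 22450 genes were called in this comparison, 13.3% higher and 13.9% lower. The share among the 7 genes is near that over all genes. This comparison uses the same 231:TKO+siNT libraries as that with parental 231+siNT above.

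In parental 231, where the lost genes were well expressed, siMyc gave small differences whose calls depended on the pair of libraries that stood apart. SOX4 lay at 49.95, 48.2 and 49.2 CPM with siNT and at 68.4, 65.8 and 59.0 CPM with siMyc, without overlap, but did not pass the test over all 6 libraries (log2 fold change 0.41 ± 0.098, edgeR adjusted p = 0.102). SPDEF lay at 106, 91.5 and 101.99 CPM against 119, 116 and 136 CPM (0.33 ± 0.11, edgeR adjusted p = 0.208), again without overlap. FOXA2 lay at 58.1, 54.9 and 58.1 CPM against 58.9, 59.7 and 67.3 CPM (0.14 ± 0.098, edgeR adjusted p = 0.587). None of the 7 genes was called in edgeR, and 0.594% of 23728 genes were, 0.24% higher and 0.354% lower. At an unadjusted p under 0.05, 4 of the 7 genes passed, as did 3462 of the 23728 genes, and DESeq2 called 1 of the 7, SOX4.

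With the pair left out, a setting added after the data had been seen, edgeR called 4 of the 7 genes and 4673 genes in all. SOX4 was then higher with siMyc by 0.48 on the log2 scale (adjusted p = 2.8e-05), SPDEF by 0.30 (adjusted p = 0.00237) and SOX9 by 0.22 (adjusted p = 0.00979), and ELF3 was lower, at -0.31 (adjusted p = 0.0261). With all 6 libraries and a factor for the pair, 6 of the 7 genes and 6363 genes in all were called. The added ones were FOXA2 (0.14, adjusted p = 0.0212) and GATA3 (0.25, adjusted p = 0.00634). What set the pair apart was not tested.

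**Figure D3:**
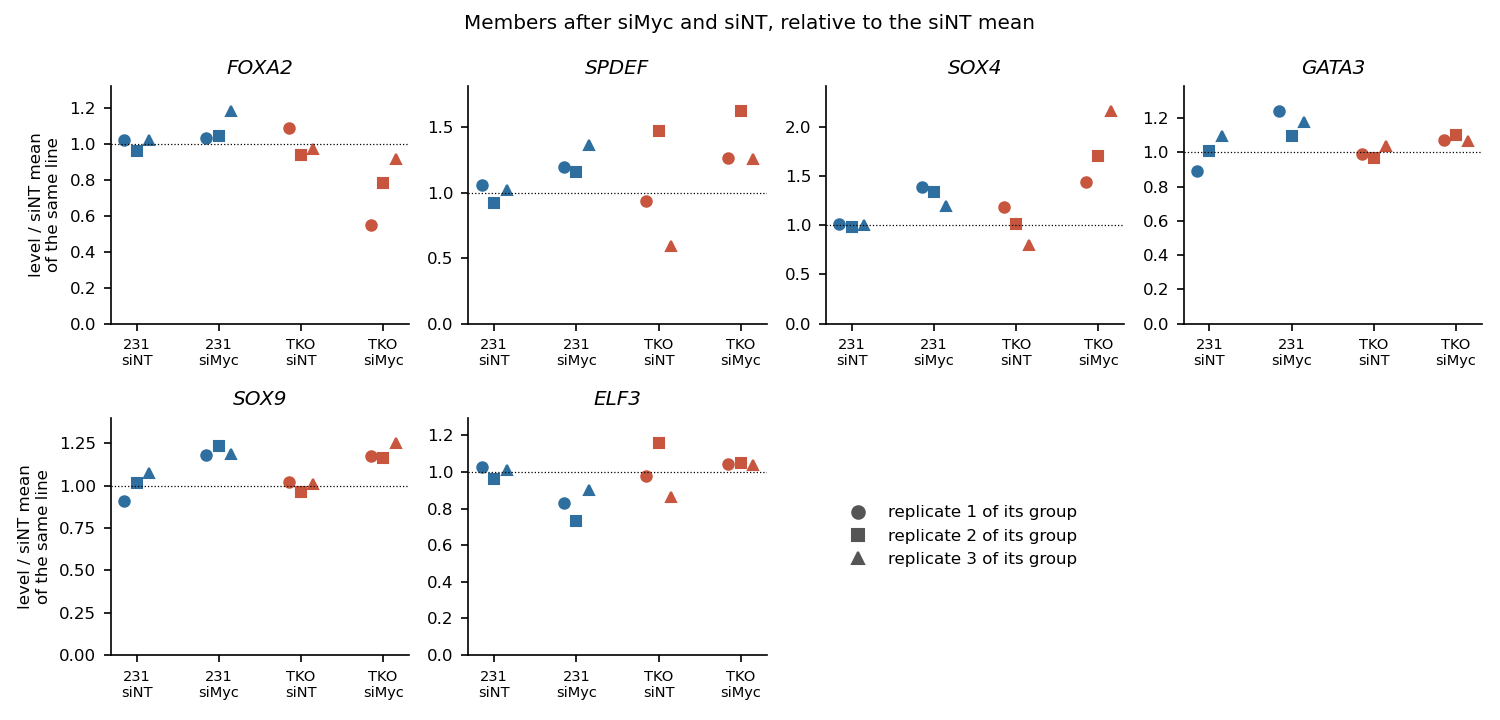
Level of 6 of the genes in each siRNA-treated library, divided by the siNT mean of the same cell population, on linear axes from 0. Blue points are parental 231 and red points 231:TKO, and the marker shape gives the replicate number within its group. SOX4 and SOX9 lie above their siNT libraries in both populations after siMyc, and FOXA2 lies lower in 231:TKO and higher in parental 231; FOXA1 is left out because of its low counts.

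Whether the response to siMyc differed between 231:TKO and parental 231 was tested as an interaction in 1 fit of the 12 siRNA libraries. None of the 7 genes was called by edgeR, with the response in 231:TKO minus that in parental 231 at -0.53 ± 0.20 for FOXA2, 0.44 ± 0.20 for SOX4 and 0.16 ± 0.30 for SPDEF on the log2 scale (adjusted p = 1.00 for each). In this fit 0% of 25812 genes were called, while 1039 genes, FOXA2 and SOX4 among them, had an unadjusted p under 0.05 and DESeq2 called 6 genes. With a factor for the pair of parental libraries 147 genes were called, again without any of the 7.

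The effect of TXNIP loss with siNT was also compared with that in untreated cells, in 1 fit of those 4 groups, where 14.1% of 25112 genes were called. Of the 4 relatives 2 were called. SOX9 rose more with siNT, by 0.64 ± 0.14 on the log2 scale (edgeR adjusted p = 0.00614). FOXA1 was called too (edgeR adjusted p = 0.0424), but with 0 counts in both untreated 231:TKO libraries. For the lost genes, given without a test, the difference was -4.46 ± 0.52 for SPDEF, 2.02 ± 0.42 for SOX4 and 1.21 ± 0.32 for FOXA2. The ratio of parental 231 to 231:TKO was thus larger with siNT for SPDEF and smaller for SOX4 and FOXA2. SPDEF itself was at a like level in 231:TKO (0.326 CPM untreated and 0.342 with siNT), while parental 231 held 4.66 and 99.7 CPM. Treatment and library type cannot be told apart in these differences. The FOXA2 value was 0.65 without 231:TKO replicate 1 and 2.12 without replicate 2.

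The nearest expressed neighbour of FOXA2 was lost with it. LINC00261, a long noncoding RNA on the same strand whose start lies 6.81 kb downstream of the FOXA2 start (chromosome 20, 22547671 to 22578642), had 345 and 339 counts (18.2 and 17.6 CPM) in untreated parental 231 and 0 and 1 counts in 231:TKO. With siNT it had 1449, 1487 and 1629 counts in parental 231 and 0, 2 and 9 in 231:TKO. The groups did not overlap, and the log2 fold changes were -9.62 ± 0.41 without siRNA and -8.18 ± 0.34 with siNT (edgeR adjusted p = 8.4e-08 with siNT). Without siRNA LINC00261 passed the count filter through parental 231 alone, so that value is a description and is given without a p. In pooled counts the loss was 1052-fold (188 to 41602) without siRNA, from that 1 count, and 285-fold (159 to 571) with siNT.

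No other neighbour of FOXA2 or SPDEF fell by as much. Of 48 annotated genes with a start within 1 Mb of FOXA2, 6 reached 1 CPM in a group. Besides LINC00261 the nearest were RPL41P1, a pseudogene whose reads may belong to its parent gene, at -830 kb (towards lower coordinates) and THBD and NXT1 at 464 and 765 kb. THBD, the thrombomodulin gene, was higher in 231:TKO without siRNA (log2 fold change 0.50, edgeR adjusted p = 0.0348) and lower with siNT (-0.69, edgeR adjusted p = 0.000246), and NXT1, an mRNA export factor, passed in neither. Around SPDEF, 24 of 59 genes reached 1 CPM. In the untreated libraries 2 of 22 were called higher and 1 lower, with a median log2 fold change of -0.04. With siNT 1 of 24 was higher and 14 lower, with a median of -0.43, beside a median of -0.03 over all genes. Of the nearest genes on each side, RPS10 fell with siNT (-0.53, edgeR adjusted p = 0.0279) and its readthrough partner RPS10-NUDT3, which shares its reads, did as well (-0.63), and ILRUN did not pass (-0.21, edgeR adjusted p = 0.152) while ILRUN-AS1 fell (-0.60, edgeR adjusted p = 0.0400). Over all genes fitted 20.7% were lower in that comparison. Of those 23310 genes 14434 reached 1 CPM in a group, so this share and that of the neighbours are not over like sets. Within 1 Mb of SOX4 none of 17 annotated genes reached 1 CPM in any group.

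**Figure D4:**
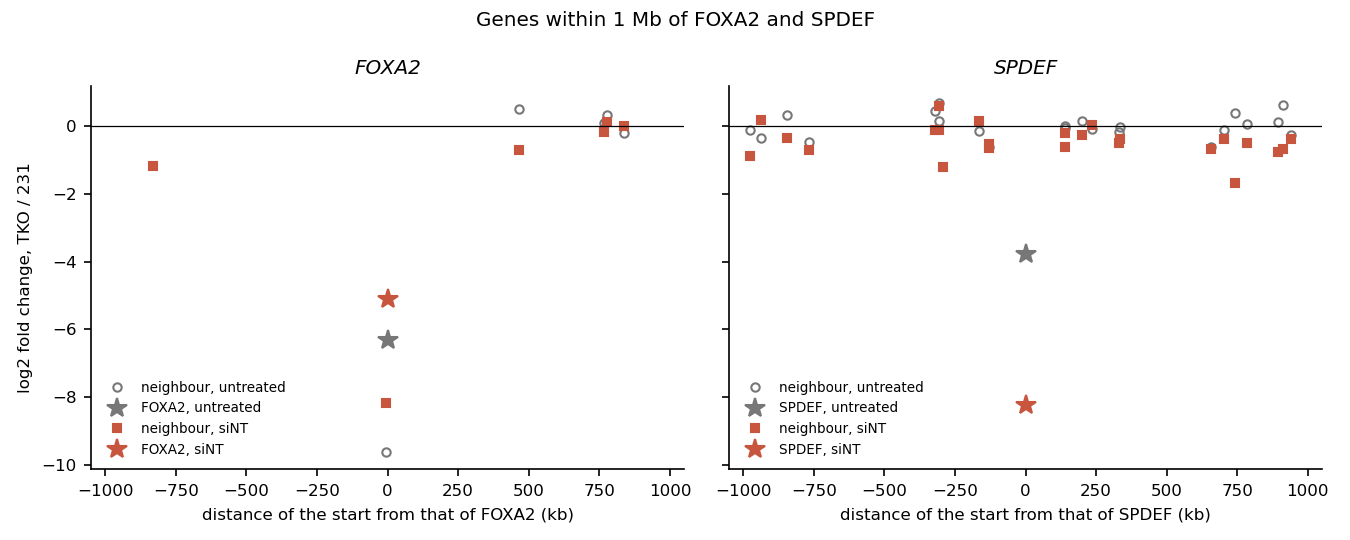
Log2 fold change of 231:TKO over parental 231 for genes with a start within 1 Mb of FOXA2 (left) and SPDEF (right), against the distance of their starts in kb. Open grey circles are neighbours without siRNA, red squares neighbours with siNT, and stars the gene itself in the same colours. LINC00261, beside FOXA2, lies at -9.62 and -8.18, and every other neighbour lies between -1.68 and 0.68.

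Most tested genes of the secretory programme in which SPDEF acts were lower in 231:TKO after siRNA, while without siRNA most were not called. The list held 18 goblet and secretory genes linked to SPDEF, drawn up with earlier results of these data known. With siNT, 15 could be tested, none rose, 12 fell and 3 were not called, with a median log2 fold change of -3.21, where 16.1% of all genes were higher and 20.7% lower. Some of these, such as AGR2 and MUC5B at 0 CPM in 231:TKO+siNT, passed the count filter through parental 231 alone. Such genes could only be scored as lower, so the counts of this list are a description. With siMyc 15 were tested, 0 rose and 12 fell, beside 18.8% and 21.7% of all genes. Without siRNA 1 of 11 rose and 3 fell, beside 5.43% and 4.18%. The summed level of the list without siRNA was 130 to 134 CPM in parental 231 and 150 to 161 in 231:TKO. Most of that was CREB3L1, with means of 114 and 143 CPM, while the median log2 fold change of the list was -0.97. With siNT the sum was 425 to 534 and 97.4 to 109 CPM. In parental 231+siNT AGR2 alone had a mean of 222 CPM, and CREB3L1 had 96.9 CPM there and 71.0 in 231:TKO+siNT. AGR2, a protein disulfide isomerase of the endoplasmic reticulum that mucin folding needs, had 13119, 9840 and 9528 counts (272, 200 and 194 CPM) in parental 231+siNT and 0 in each of the 231:TKO+siNT libraries. Its pooled level was at least 7428-fold lower, taking 3 counts over the group as the floor. In untreated parental 231 it had only 8 and 11 counts, and 0 in 231:TKO.

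The trefoil peptides, which mucus-secreting cells release with mucins, followed the same pattern. TFF3 had 1494, 969 and 992 counts in parental 231+siNT and 0, 0 and 1 in 231:TKO+siNT, a ratio of 2370-fold (425 to 93629). TFF1 had 1117, 795 and 828 counts against 1, 4 and 1, or 313-fold (144 to 854). Neither group overlapped. The log2 fold changes were -10.88 ± 0.44 for TFF3 and -8.28 ± 0.32 for TFF1 (edgeR adjusted p = 1.2e-08 for TFF1). TFF3 passed the count filter through parental 231 alone, so its value is a description and is given without a p. In untreated parental 231 TFF3 had 13 counts in each library and TFF1 had 4 and 16, and TFF1 did not pass there (edgeR adjusted p = 0.526). CREB3L1, a secretory pathway transcription factor, was the gene that rose without siRNA, from 114 ± 1.83 to 143 ± 10.2 CPM (edgeR adjusted p = 0.0395).

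**Figure D5:**
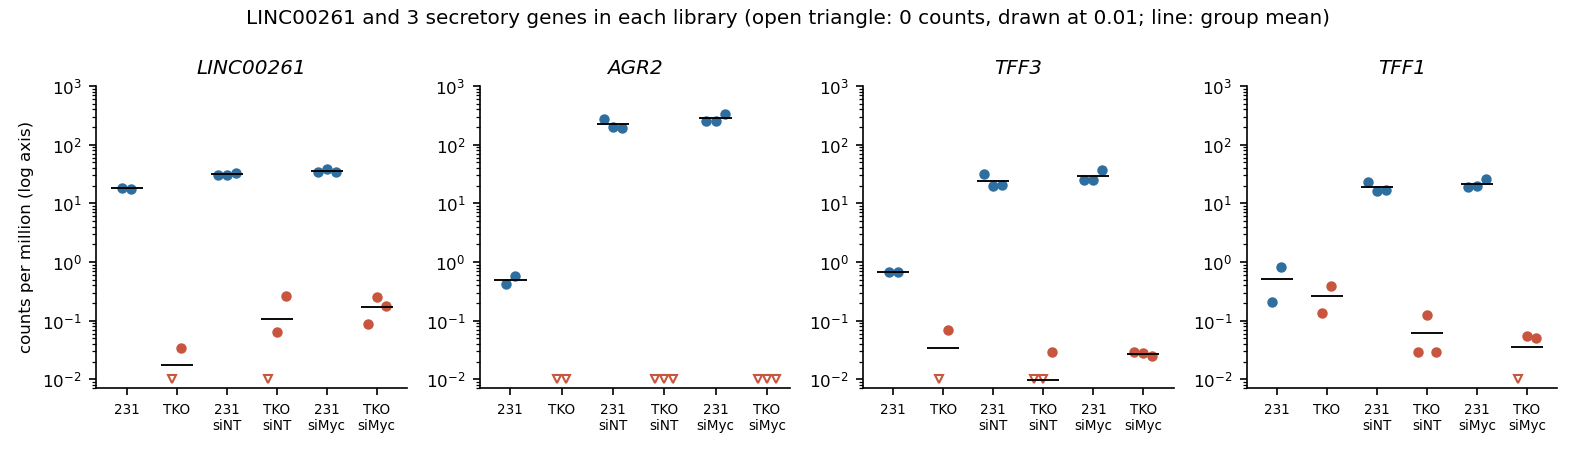
Level of LINC00261, AGR2, TFF3 and TFF1 in each library, in CPM on a log axis, drawn as in the plot of the 7 factors (blue parental 231, red 231:TKO, lines group means, open triangles 0 counts drawn at 0.01). LINC00261 was at 17.6 CPM or more in every parental library, while AGR2 went from 0.422 and 0.571 CPM in untreated parental 231 to between 194 and 336 CPM with siRNA and had 0 counts in every 231:TKO library.

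In the comparison of siMyc with siNT, 3 of 10 secretory genes rose in 231:TKO and none fell, beside 13.3% and 13.9% of all genes. They were FCGBP, a protein of mucus that rose from 7.19 to 11.1 CPM (log2 fold change 0.61, edgeR adjusted p = 5.8e-05), the transmembrane mucin MUC1 (11.6 to 16.4 CPM, 0.48, edgeR adjusted p = 4.6e-05) and SPINK4 (5.34 to 7.11 CPM, 0.40, edgeR adjusted p = 0.00905). AGR2 had 0 counts in all 3 231:TKO+siMyc libraries. In parental 231, MUC1 was the 1 gene of 15 that rose (14.8 to 26.7 CPM, 0.87, edgeR adjusted p = 0.0378), beside 0.24% of all genes.

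Markers of luminal epithelium, which FOXA1, GATA3 and SPDEF serve, fell more often than they rose in 231:TKO. This list shares AGR2, AGR3, TFF1, TFF3 and MUC1 with the secretory list, so its counts are not independent of those above. AGR2, at 0 CPM in every 231:TKO group, passed the count filter through parental 231 alone and could only be scored as lower. Without siRNA 0 of 21 rose and 6 fell, with a median log2 fold change of -0.24, beside 5.43% and 4.18% of all genes. The epithelial cadherin CDH1 fell from 4.87 to 0.324 CPM (-3.85, edgeR adjusted p = 0.00726), and the tight junction protein CLDN7 and the receptor ERBB3 fell too (-0.82 and -0.81). With siNT 4 of 21 rose and 13 fell (median -0.48), beside 16.1% and 20.7% of all genes. With siMyc 5 of 23 rose and 13 fell (median -0.82), beside 18.8% and 21.7%. The prolactin receptor PRLR rose with siNT, from 3.02 to 11.9 CPM. After siMyc in 231:TKO 8 of 20 luminal markers rose, KRT19 from 360 to 510 CPM among them, and 0 fell, against 13.3% and 13.9% of all genes. The median log2 fold change was 0.28 there and 0.23 in parental 231. In parental 231, 1 of 21 was called, MUC1, beside 0.24% of all genes higher, and KRT19 went from 748 to 928 CPM without passing. For the difference of the siMyc responses 0 of 23 were called, beside 0% of all genes.

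Other members of the families moved both ways. Of the forkhead genes, without FOXA2, 0 of 24 rose and 3 fell without siRNA, beside 5.43% and 4.18% of all genes, and 10 of 28 rose and 7 fell with siNT, beside 16.1% and 20.7%. FOXQ1 fell in both, from 109 to 21.9 CPM with siNT (-2.38, edgeR adjusted p = 2.3e-08), as did FOXA3, the remaining FOXA gene, with siNT (1.42 to 0.453 CPM, -1.69), while FOXO3, a target of growth factor signalling, rose from 32.2 to 80.2 CPM (1.25). After siMyc in 231:TKO 5 of 25 rose, FOXQ1 by 0.95 (edgeR adjusted p = 4.7e-09), and 3 fell, beside 13.3% and 13.9% of all genes. FOXQ1 rose after siMyc in parental 231 too, from 109 to 158 CPM (0.56, edgeR adjusted p = 0.0491). It was the 1 gene of 27 called there, beside 0.24% of all genes higher and 0.354% lower. With siMyc in both cells, 9 of 28 rose and 7 fell in 231:TKO, beside 18.8% and 21.7%.

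For the ETS, SOX and GATA families the shares over all genes were 5.43% higher and 4.18% lower without siRNA and 16.1% and 20.7% with siNT. Of the ETS genes, without SPDEF, 4 of 21 rose and 0 fell without siRNA, and 7 of 21 rose and 4 fell with siNT. EHF, an epithelial ETS factor close to ELF3, rose without siRNA, from 63.0 to 134 CPM (1.13), and fell with siNT, from 199 to 156 CPM (-0.42). Of the SOX genes, without SOX4, 1 of 6 rose and 1 fell without siRNA, and 2 of 11 rose and 5 fell with siNT. Some, such as SOX2 and SOX21 at 0 CPM in 231:TKO+siNT, passed the count filter through parental 231 alone. They could only be scored as lower, so the SOX counts with siNT are a description. SOX12, which belongs to the same subgroup as SOX4, fell with siNT from 52.7 to 27.7 CPM (-0.99, edgeR adjusted p = 9.9e-06). Without siRNA it did not fall, at 41.1 CPM in parental 231 and 46.7 in 231:TKO (0.23, edgeR adjusted p = 0.187). Of the 3 GATA genes tested, GATA6 rose without siRNA (31.9 to 54.3 CPM, 0.81) and GATA2 and GATA3 rose with siNT.

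For the remaining lists the shares over all genes were again 5.43% higher and 4.18% lower without siRNA and 16.1% and 20.7% with siNT. Genes linked to FOXA factors in endoderm and liver were mostly too low to test: 7 of 28 could be tested without siRNA, where 2 rose and 0 fell, and 10 with siNT, where 1 rose and 3 fell. SERPINA1, the liver antiprotease, rose in both (3.04 to 25.01 CPM and 41.4 to 77.9 CPM), and HNF4G fell with siNT (1.74 to 0.845 CPM). Of the genes linked to SOX4, 0 of 11 were called without siRNA, and 3 rose and 2 fell with siNT. Basal markers were called in both directions (1 of 12 higher and 3 lower without siRNA, 4 of 14 higher and 5 lower with siNT), and so were mesenchymal markers (2 of 12 and 1, then 5 of 12 and 2). Of the immune, endothelial and fibroblast markers 0 of 9 rose and 2 fell without siRNA, and 1 of 9 rose and 6 fell with siNT. In the latter set PTPRC, at 0.00971 CPM in 231:TKO+siNT, passed the count filter through parental 231 alone.

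The genes whose pattern was most like that of each lost gene were ranked by Pearson's r of log2(CPM + 0.5) over the 16 libraries, among 14452 genes. The libraries fall into the same groups and differ in depth and read type, so r is a description. For FOXA2 the leading genes were PGF, HES2 and SDR16C5 (r = 0.98 for each), for SPDEF AGR2, TSPAN8 and SERPIND1 (0.99 for each), and for SOX4 CHRM3 (0.99), SDR16C5 (0.98) and MEF2C (0.98). With 2 in place of 0.5 the ranks moved: SDR16C5 came 1st for FOXA2 and 17th for SOX4, TSPAN8 came 1st and AGR2 and SERPIND1 came 9th and 14th for SPDEF, and MEF2C came 1st for SOX4. TSPAN8, a tetraspanin, had means of 0.760 CPM in untreated parental 231, 31.1 with siNT and 0 in each 231:TKO group of those sets. Among themselves FOXA2 and SOX4 correlated at 0.95, FOXA2 and SPDEF at 0.93 and SPDEF and SOX4 at 0.90. The lost genes were chosen for their low levels in 231:TKO, so high values of r among them follow from that choice. With 0.5, SOX4 ranked 42nd and SPDEF 62nd for FOXA2, and SOX4 ranked 375th for SPDEF. SOX4 and SOX9 correlated at -0.86.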

How the data were processed

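RNA-seq counts per gene were used as the authors deposited them: reads were aligned to GRCh38 with STAR and assigned with featureCounts 1.6.3 on the reverse strand by largest overlap, per the file headers and the study's methods. Single reads were assigned for untreated cells and read pairs after siRNA. The siRNA-treated parental libraries were counted with Ensembl release 104 and all others with release 102, and 60620 of 60719 identifiers were shared. Depth after siRNA also ran with the cell population, at 48203939 to 59799444 counts in parental 231 and 31848151 to 39527700 in 231:TKO. Levels are raw counts scaled to 1000000 over each library's total in genes (CPM), without further scaling. Fold changes come from edgeR 4.0.16 (R 4.3.3, TMM normalization, quasi-likelihood test, Benjamini-Hochberg adjustment over all genes), for genes with more than 5 counts in sum. The study calls the replicates of untreated cells and of siRNA-treated 231:TKO cells biological, without saying how they were separated, and p-values measure the spread between these libraries. Totals between 18953668 and 59799444 put 3 counts at 0.0502 to 0.158 CPM.

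The 7 genes, the gene lists (forkhead, ETS, SOX and GATA families, luminal, basal, mesenchymal, secretory, endoderm, SOX4-linked and immune markers) and the tests were chosen with earlier results of these data known. Genes were named by rule: from each list up to 3 called genes with the largest changes in each direction, at 1 CPM or more in a group and without overlap, the 3 genes most correlated with each lost gene, and the 2 nearest expressed neighbours on each side. The levels of AGR2, TFF3 and TFF1 in untreated cells were added after their values were seen. The motifs TATTTAC and CCAAT were added after the promoters had been read. Alternatives were DESeq2 1.42.0, its size factors, other filters, a stricter threshold, a replicate block, a joint fit and leaving out each replicate; leaving out, or fitting a factor for, the pair of parental libraries was added after the data had been seen. The fit was tested on simulated counts.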

Additional observations from a re-analysis of the deposited data

Results flagged for a closer look

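The effect of TXNIP loss with siNT differed from that in untreated cells for 2 of the 4 relatives, by a test of the difference itself. SOX9 rose more with siNT, by 0.64 on the log2 scale (edgeR adjusted p = 0.00614), with 112 ± 3.53 against 51.7 ± 4.34 CPM (SD, n = 3) there and 162 ± 7.27 against 125 ± 3.51 CPM (n = 2) in untreated cells. For FOXA1 the fitted difference was 6.71 (edgeR adjusted p = 0.0424), which depends on the prior count, since both untreated 231:TKO libraries had 0 counts and the parental ones 2 and 1. Untreated and siRNA-treated libraries were also counted in different ways, so the difference and the library type cannot be told apart. Dixon's test for a single distant sample was not applied, as no group has more than 3 libraries.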

How the results depend on the processing

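Of the relatives in untreated cells, where 1 was called, DESeq2 called 2, the replicate block 0 and an adjusted p of at most 0.01 called 0, and leaving out a replicate gave 0 to 3. With siNT leaving out a replicate gave 2 to 4 of 4. For siMyc against siNT in parental 231, where 0 of the 7 genes were called, 1 fit of the 12 siRNA libraries called 2, DESeq2 1, leaving out the pair of parental libraries 4 and a factor for the pair 6. For the difference of the TXNIP effect between siNT and untreated cells, where 2 were called, DESeq2, more than 5 counts in every library and an adjusted p of at most 0.01 each called 1, and leaving out a replicate gave 1 to 2. Signs that turned were of values that passed no test: on the log2 scale, leaving out a replicate gave -0.044 to 0.17 for ELF3 after siMyc in 231:TKO, and for the difference of the siMyc response -0.10 to 0.53 for SPDEF, -0.22 to 0.90 for FOXA1 and -0.13 to 0.011 for SOX9, and -0.56 to 0.20 for GATA3 in the difference of the TXNIP effect. Same-numbered replicates did not deviate together, so the numbers do not pair the libraries, and the replicate block changed no other count among the 7 genes, while it took all genes called from 1919 to 904 in untreated cells and from 141 to 0 for siMyc in parental 231. With 12 of 15 secretory genes lower with siNT, requiring more than 5 counts in every library left 6, as that filter drops genes that fell to 0. The 2 untreated replicates limit those calls, and FOXA1 is limited by its depth.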
